A study of Homo sapiens with 12 samples.

Results

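Transcript levels of 7 genes of BMP, TGFβ and Notch signalling were followed across 12 RNA-seq libraries of HCT116 cells, a human colon carcinoma line. The genes were the inhibitor of DNA binding genes *ID1*, *ID2* and *ID3*, the inhibitory SMAD genes *SMAD6* and *SMAD7*, the SMAD co-repressor gene *SKIL* and the Notch effector gene *HES1*. They were chosen by name as short-lived mRNAs of these pathways, with earlier results of these data known. All 7 were found among the 26364 genes of the count table and passed the filter on low counts in every comparison. The study asked how the topoisomerase TOP1 and the NF-κB subunit p65 contribute to TNFα-triggered gene expression. WT cells and p65-deficient cells were left without inhibitor or pre-incubated for 2 h with 5 µM of camptothecin (CPT), which traps TOP1 on DNA, or of the TOP2 inhibitor ICRF193. Each of these 6 conditions was sequenced without TNFα (0 h) and after 1 h of TNFα at 20 ng/ml, so the 12 conditions hold 1 library each and no condition has a replicate. The p65-deficient cells are described as a single-cell clone made with CRISPR-Cas9, whereas the sample labels call the same libraries shRNA p65. As there was 1 clone, the loss of p65 cannot be told apart from its other properties. In the libraries with TNFα the cytokine followed the pre-incubation, so an added hour of inhibitor and TNFα cannot be told apart in a comparison of CPT libraries across the time points.

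The ID proteins carry a helix-loop-helix but no DNA-binding region, pair with E proteins such as TCF3 and keep them off DNA, and their genes are classical immediate targets of BMP signalling through SMAD1 and SMAD5. SMAD6 and SMAD7 are inhibitory SMADs that are induced by BMP and TGFβ and feed back on the receptors, SMAD6 mainly on the BMP branch and SMAD7 on both, and SKIL (SnoN) is a co-repressor that binds SMAD complexes on DNA. HES1 is a transcriptional repressor and the best known target of Notch through RBPJ, and it represses its own gene. In colonic epithelium BMP signalling is strongest in differentiating cells and Notch in the proliferating crypt, and HCT116 cells carry an inactivating frameshift in the TGFβ receptor gene *TGFBR2*.

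The libraries held between 8101212 and 22051046 reads assigned to genes. The 4 smallest, with at most 8755001 reads, were the p65-deficient cells with ICRF193 at 0 h and all 3 p65-deficient libraries with TNFα, and the others held at least 16300210. *RELA*, the gene of p65, had 694 to 909 normalised reads in WT cells and 548 to 673 in the p65-deficient cells, so its mRNA was lower but present. Read counts do not show whether the protein is made. The paper describes the sequenced clone as lacking p65, which it examined by Western blot. *TOP1* lay between 1766 and 2261. The epithelial genes *EPCAM*, *KRT8*, *KRT18*, *KRT19*, *CDH1* and *CDX2* were present in every library, whereas *VIL1* had at most 4 reads and *CDX1* none. Of 5 fibroblast markers, 4 (*COL1A2*, *COL3A1*, *DCN* and *LUM*) had at most 3 reads in any library. The sum of all 5, carried by *COL1A1*, was 118 to 196 with CPT and 74.6 to 104 without it. The sum of 4 leukocyte markers, carried by *CD14*, was 7.5 to 16.4 with CPT and 1.6 to 6.3 without it. The sum of 4 endothelial markers was 9.1 to 12.2 with CPT and 11 to 26.7 without it, and that of the epithelial markers 55808 to 68704 and 52541 to 59955. The part of these shifts in the CPT results was not tested.

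Normalised read counts are reads divided by a size factor of the library, so they give the share of a gene in the RNA of a library, and a shift of all RNA is not visible in them. In bulk RNA a change in every cell and a change in the number of cells that express a gene cannot be told apart. Per kilobase of exon, the mean level over the 12 libraries was highest for *ID1* (2252, above 97.8% of the 21096 genes with a read). It was followed by *ID2* (749.7), *ID3* (614), *HES1* (319), *SMAD6* (73.5), *SKIL* (39.8) and *SMAD7* (28.9). The lowest library of *ID1* (1233 per kilobase) lay above the highest of *ID2* (1159), and the lowest of *HES1* (207) above the highest of *SMAD6* (116). The neighbours *ID2* and *ID3*, *ID3* and *HES1*, *SMAD6* and *SKIL*, and *SKIL* and *SMAD7* overlapped in their ranges over the libraries.

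In the hg19 annotation of the count table the members are of unequal size. *ID1* spans 1.232 kb on chromosome 20 (30193086 to 30194317, plus strand), *ID2* 2.471 kb on chromosome 2 (8822113 to 8824583, plus strand), *ID3* 1.865 kb on chromosome 1 (23884421 to 23886285, minus strand) and *HES1* 2.471 kb on chromosome 3 (193853931 to 193856401, plus strand). The SMAD genes and *SKIL* are longer. *SMAD6* spans 79.664 kb on chromosome 15 (66994674 to 67074337, plus strand), *SMAD7* 30.859 kb on chromosome 18 (46446223 to 46477081, minus strand) and *SKIL* 39.165 kb on chromosome 3 (170075473 to 170114637, plus strand). Reads over exons were counted, and no member shares exonic bases with another gene of that annotation.

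The sequences upstream of the start sites differ in the elements known from these pathways. RefSeq promoter windows (build GRCh38.p14) were found for all 7 genes, and the 250 bases before the outermost start were searched on both strands for 8 motifs. These were the SMAD palindrome GTCTAGAC, the SMAD-binding CAGACA, the BMP-responsive GGCGCC, the RBPJ core TGGGAA, the N box CACNAG that HES proteins bind, the cyclic AMP response element TGACGTCA, the TATA box TATAAA and the NF-κB consensus. The windows of *HES1*, *SMAD6*, *ID1* and *SMAD7* are shown, 5′ to 3′ on the strand of the gene, with the matched letters in capitals. *HES1*, *SMAD6* and *SMAD7* had the largest CPT log2 fold changes in size. The CPT ratio of *ID1* changed sign between conditions, as did those of *ID2* and *SKIL*, whose windows are not shown.
HES1 (chr3:194135898-194136147, plus strand): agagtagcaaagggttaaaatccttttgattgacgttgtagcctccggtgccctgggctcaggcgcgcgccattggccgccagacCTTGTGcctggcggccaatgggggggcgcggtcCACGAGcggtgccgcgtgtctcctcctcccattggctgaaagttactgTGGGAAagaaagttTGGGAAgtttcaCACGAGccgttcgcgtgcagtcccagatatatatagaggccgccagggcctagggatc
SMAD6 (chr15:66701986-66702235, plus strand): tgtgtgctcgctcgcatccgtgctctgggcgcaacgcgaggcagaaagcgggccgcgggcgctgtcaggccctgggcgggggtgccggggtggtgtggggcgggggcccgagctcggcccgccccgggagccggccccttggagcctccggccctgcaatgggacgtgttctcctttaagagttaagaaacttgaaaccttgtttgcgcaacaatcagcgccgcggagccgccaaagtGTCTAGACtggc
ID1 (chr20:31605039-31605288, plus strand): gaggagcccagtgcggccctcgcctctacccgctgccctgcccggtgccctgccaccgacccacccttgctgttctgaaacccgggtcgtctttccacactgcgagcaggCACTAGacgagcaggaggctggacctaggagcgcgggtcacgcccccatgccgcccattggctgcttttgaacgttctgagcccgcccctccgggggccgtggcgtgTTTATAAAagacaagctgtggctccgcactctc
SMAD7 (chr18:48950966-48951215, minus strand): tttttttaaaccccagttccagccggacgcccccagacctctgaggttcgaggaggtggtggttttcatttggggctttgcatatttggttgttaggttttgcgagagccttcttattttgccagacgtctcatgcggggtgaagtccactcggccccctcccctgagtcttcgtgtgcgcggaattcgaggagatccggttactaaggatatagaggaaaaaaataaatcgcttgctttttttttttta
The *HES1* window holds 2 copies of the RBPJ core, which begin 84 and 70 bases before the start, and 3 N boxes at 165, 132 and 58 bases. Of 35116 promoter windows of this length, 20.8% hold an RBPJ core and 32% an N box. *SMAD6* holds the SMAD palindrome 12 bases before its start, and 0.182% of the windows do. *ID1* has an N box at 140 bases and a TATA box read on both strands (10.7% of the windows), where TATAAA and its reverse complement overlap at 31 and 33 bases. *SKIL* holds GGCGCC (16.4%) at 190 bases and TGACGTCA (1.65%) at 54 bases. None of the letters searched was found in the outermost *SMAD7* window, 1 of 3 in the table for this gene, or in those of *ID2* and *ID3*, and no member held CAGACA or the NF-κB consensus in these 250 bases. A match describes the letters only. The other *SMAD7* windows were not examined for this gene, so whether they hold any of the motifs is not known here.

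*ID1* was the member with the highest level, and it was higher in p65-deficient than in WT cells in every condition. Without inhibitor, WT cells had 2648 normalised reads at 0 h and 1572 after 1 h of TNFα, and p65-deficient cells had 4912 and 3983. With CPT the values were 1847 and 1951 in WT cells and 2729 and 2339.9 in p65-deficient cells. With ICRF193 they were 2333 and 1519 in WT cells and 4089.7 and 3365 in p65-deficient cells. All libraries of p65-deficient cells without CPT (3365 or more) lay above all WT libraries (2648 or less). Among libraries without CPT, 15% of 13730 genes were higher in p65-deficient cells without overlap. The CPT libraries of both cell lines lay closer together, between 1847 and 2729.

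*ID2* differed between the cell lines mainly in the libraries without CPT. WT cells without CPT had 1581 and 1465 normalised reads at 0 h (no inhibitor and ICRF193) and 1148 and 1219 after 1 h of TNFα. The p65-deficient cells without CPT had 557 and 631 at 0 h and 528.5 and 540.1 at 1 h. With CPT, WT cells had 1170.4 and 1216 and p65-deficient cells 1133 and 1083. The cell lines did not overlap without CPT, as for 20.2% of 13730 genes with lower and 15% with higher values in p65-deficient cells, whereas the 4 CPT libraries of both lines lay within 1.12-fold of each other. In p65-deficient cells the CPT libraries lay above all others, and in WT cells they lay within the range of the libraries without it.

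*ID3* was higher in the CPT libraries of both lines. Its 4 CPT libraries had 922 and 946 normalised reads in WT cells (0 h and 1 h) and 1169.7 and 1051 in p65-deficient cells. The 8 libraries without CPT lay between 515 and 726, with a median of 652, and did not overlap the CPT libraries, as for 14.1% of 13993 genes with higher CPT libraries. Among them WT cells (693 to 726) lay above p65-deficient cells (515 to 612), as for 20.2% of 13730 genes. With CPT this order was the opposite.

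*SMAD6*, which restrains BMP receptors, was lower in all CPT libraries. WT cells with CPT had 111 normalised reads at 0 h and 139 at 1 h, against 227 and 265 without inhibitor and 228 and 219 with ICRF193. The p65-deficient cells with CPT had 156 and 136, against 349 and 347 without inhibitor and 246 and 231 with ICRF193. The 4 CPT libraries (111 to 156) did not overlap the 8 others (219 to 349), as for 17.6% of genes with lower CPT libraries, and the 2 highest values were those of p65-deficient cells without inhibitor.

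*SMAD7*, the inhibitor of both branches, was low with CPT in WT cells only. WT cells had 154, 173, 183 and 152 normalised reads without CPT (no inhibitor at 0 h and 1 h, ICRF193 at 0 h and 1 h) and 35.7 and 39.4 with CPT. The p65-deficient cells had 82.1, 69.7, 82.1 and 69.5 without CPT and 89.7 and 62.9 with it. So the 6 libraries of p65-deficient cells lay within 1.43-fold of each other, between the 2 WT groups. Among libraries without CPT, 20.2% of 13730 genes were lower in p65-deficient cells without overlap, as *SMAD7* was. Its counts are the smallest among the members, with 36 to 235 reads per library, and their ratios have the widest counting intervals.

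*SKIL* varied least among the members, 1.47-fold between its lowest and highest library. WT cells had 280.1 to 317 normalised reads over 6 libraries with a median of 301, CPT included (294 at both time points). The p65-deficient cells had 265 and 318 without inhibitor, 325 and 316 with ICRF193, and 222 and 225 with CPT, which were the 2 lowest of all libraries.

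*HES1* was higher in the CPT libraries of both lines. The 4 CPT libraries had 735 and 772 normalised reads in WT cells and 719 and 662 in p65-deficient cells. The 8 libraries without CPT lay between 302 and 415 with a median of 332, the highest being p65-deficient cells without inhibitor at 0 h, and did not overlap the CPT libraries, as for 14.1% of genes with higher CPT libraries.

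**Figure D1:**
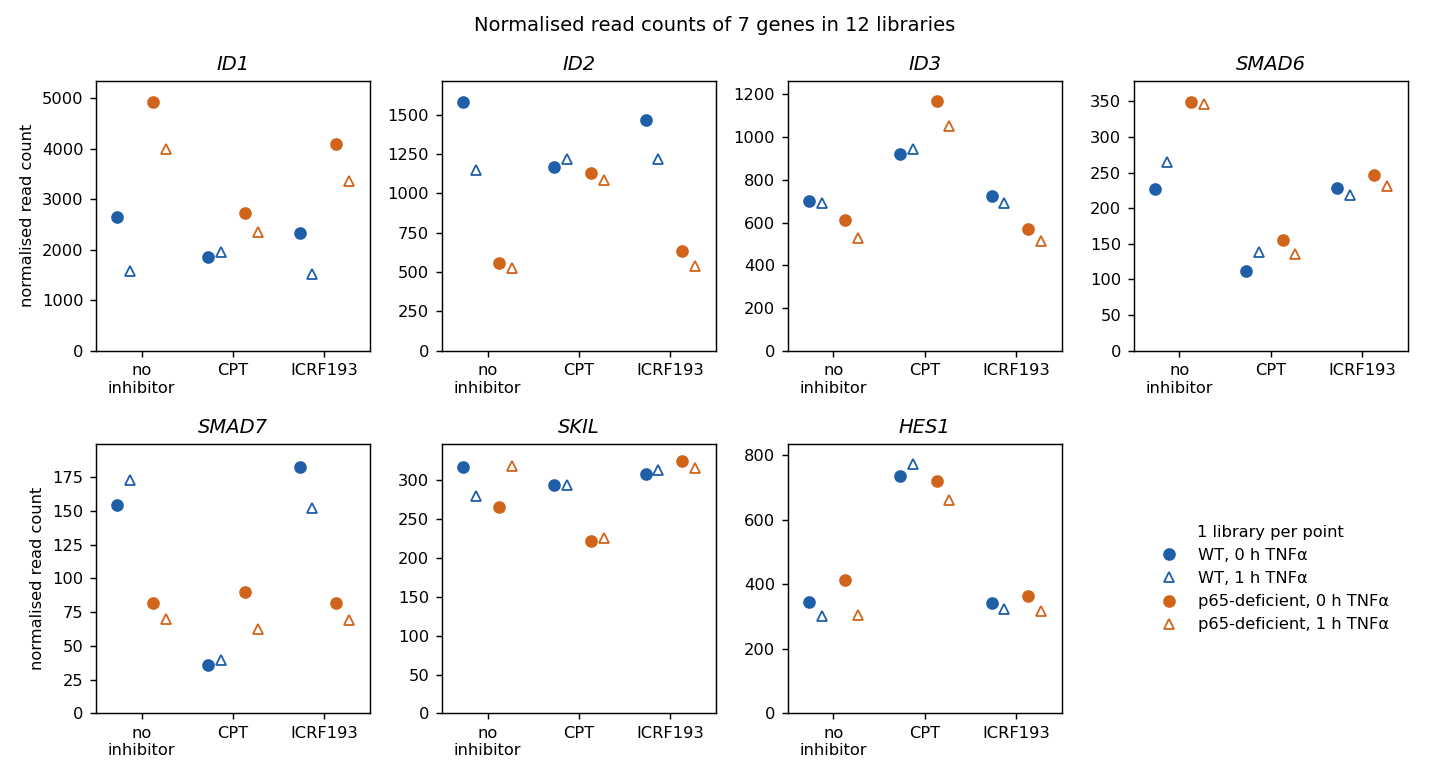
Normalised read counts (reads divided by the size factor of the library, linear axes from 0) of the 7 genes with no inhibitor, CPT or ICRF193, with 1 library per point, WT cells in blue and p65-deficient cells in orange, filled circles for 0 h and open triangles for 1 h of TNFα. The CPT libraries of *ID3* and *HES1* lie above and those of *SMAD6* below all others, *ID2* meets at 1083 to 1216 in the CPT libraries, and *SMAD7* drops to 35.7 and 39.4 in WT cells alone.

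CPT was compared with no inhibitor in 4 pairs of libraries, 1 for each cell line and time point. *HES1* rose by 1.08 on the log2 scale (SE 0.0897, edgeR adjusted p = 2.95e-06) and *ID3* by 0.67 (SE 0.0948, adjusted p = 0.00016), whereas *SMAD6* fell by 1.11 (SE 0.0993, adjusted p = 5.19e-06), *SMAD7* by 1.13 (SE 0.337, adjusted p = 0.0168) and *ID1* by 0.47 (SE 0.147, adjusted p = 0.0209). *ID2* (0.37, SE 0.194, adjusted p = 0.139) and *SKIL* (-0.18, SE 0.101, adjusted p = 0.159) did not pass the threshold of 0.05. Thus 5 of 7 genes passed, 2 higher and 3 lower, where 48.3% of all 13993 genes tested did so, 23.2% higher and 25.1% lower. The median log2 fold change was -0.18 over the 7 genes and 0.02 over all genes. These p-values come from edgeR's quasi-likelihood test with Benjamini-Hochberg adjustment over all genes and with the pair as a block, and the pairs, which differ in cell line and TNFα, stand in for replicates.

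The 4 pairs gave 1 sign for *ID3*, *SMAD6* and *HES1* (3 of 7, against 59.2% of all genes), and for each of these the exact sign-flip permutation test over 4 pairs gave p = 0.125, the smallest it can give. *HES1* was higher with CPT by 1.10 and 1.35 on the log2 scale in WT cells (0 h and 1 h) and by 0.79 and 1.11 in p65-deficient cells. *SMAD6* was lower in all pairs, with ratios of -1.03 and -0.93 in WT cells and -1.16 and -1.35 in p65-deficient cells. For *ID1* the pair of WT cells at 1 h went the other way, with a log2 ratio of 0.31 (95% exact Clopper-Pearson interval 0.23 to 0.40, which covers counting error only) against -0.52, -0.85 and -0.77 in the other 3. Single pairs decided 3 of these results. Without WT cells at 0 h *ID1* (edgeR adjusted p = 0.063) and *SMAD7* (-0.79, adjusted p = 0.101) did not pass and *ID2* did (0.66, adjusted p = 0.00632). Without WT cells at 1 h *SMAD7* did not pass (-0.75, adjusted p = 0.11) and *ID1* was -0.72, and without p65-deficient cells at 0 h *SMAD7* was -1.72. Without p65-deficient cells at 1 h, the shallow pair, *ID1* did not pass (adjusted p = 0.0817). With DESeq2 *ID1* (adjusted p = 0.155) and *SMAD7* (adjusted p = 0.129) did not pass.

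**Figure D2:**
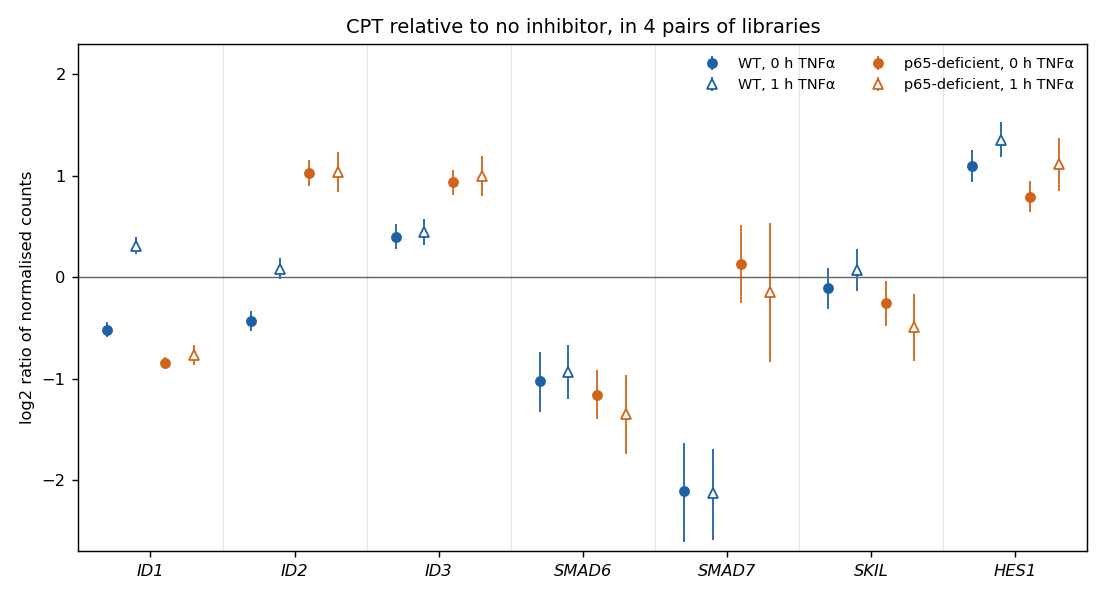
Log2 ratio of normalised counts with CPT to no inhibitor for the 7 genes in 4 pairs of libraries, with 95% counting intervals as bars. *HES1* and *ID3* lie above 0 and *SMAD6* below 0 in all 4 pairs, while *SMAD7* lies near -2.1 in WT cells and near 0 in p65-deficient cells, and *ID2* near 1.0 in p65-deficient cells only.

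The response to CPT differed between the cell lines for 4 of the 7 genes, 1 with the higher and 3 with the lower log2 ratio in WT cells, against 4.78% of 14573 genes tested (2.38% higher, 2.39% lower). The 7 genes were chosen with earlier results of these data known, so this count describes them and is no test of enrichment. For *SMAD7* the CPT log2 ratio was -2.11 (interval -2.62 to -1.64) and -2.13 (-2.59 to -1.70) in WT cells, and 0.13 (-0.26 to 0.51) and -0.15 (-0.84 to 0.53) in p65-deficient cells. The difference of WT minus p65-deficient cells was -2.15 (SE 0.232, edgeR adjusted p = 2.36e-05), at percentile 0.4 of this difference over all genes. This fit of the difference leaves few degrees of freedom per gene, and fewer when a pair is left out. Its error therefore rests largely on the spread shared by all genes. *ID2* was higher with CPT by 1.02 and 1.03 in p65-deficient cells, a 2.03-fold and 2.05-fold higher count, and had ratios of -0.43 and 0.08 in WT cells, a difference of -1.19 (SE 0.134, adjusted p = 3.89e-05). *ID3* had a smaller ratio in WT cells (0.40 and 0.45) than in p65-deficient cells (0.94 and 1.00), with a difference of -0.51 (SE 0.0994, adjusted p = 0.00583). *ID1* went the other way, with a difference of 0.72 (SE 0.16, adjusted p = 0.0151), which was 1.14 without the pair of WT cells at 0 h and 0.32 without that at 1 h.

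The CPT effect on *SMAD6* (difference 0.27, adjusted p = 0.391), *HES1* (0.33, adjusted p = 0.171) and *SKIL* (0.35, adjusted p = 0.202) was not shown by edgeR to differ between the cell lines, and a p above the threshold does not show that it was equal. Without the pair of WT cells at 0 h *HES1* passed (0.47, adjusted p = 0.0154). Fitted on the 2 pairs of each line alone, a choice made after the data were seen, *SKIL* fell by 0.36 in p65-deficient cells (adjusted p = 0.00548) and had -0.04 in WT cells (adjusted p = 0.795). In the same fits *ID2* rose by 1.01 in p65-deficient cells (SE 0.0694) and fell by 0.20 in WT cells (SE 0.0757, edgeR adjusted p = 0.0237). Such a fit leaves 1 degree of freedom per gene, so its error rests almost wholly on the spread shared by all genes. With DESeq2 in place of edgeR the difference between the lines was called for *SMAD7* and *ID2* but not for *ID3* (adjusted p = 0.0642) or *ID1* (adjusted p = 0.803), and *ID1* was also not called without the block on pairs (adjusted p = 0.142).

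The CPT effect did not differ detectably between 1 h and 0 h of TNFα for any of the 7 genes (edgeR adjusted p = 1 for each), where 1 of 14573 genes passed (0.00686%) and 94 had an unadjusted p under 0.05. DESeq2 also called 1 gene and no member. The largest difference among the members in size was that of *SMAD7* (-0.47, SE 0.677), followed by *ID1* (0.46, SE 0.26). This fit holds no term for a CPT effect that differs between the cell lines, so such a difference enters its error. It also leaves few degrees of freedom per gene, so it cannot show that the effect was equal at both times. The CPT ratios of *ID1* were -0.52 at 0 h and 0.31 at 1 h in WT cells, and -0.85 and -0.77 in p65-deficient cells. Leaving out a pair unbalances cell line and time, and then *ID1* (0.63, edgeR adjusted p = 0.00183) and *SMAD7* (-1.53, adjusted p = 0.0203) passed without WT cells at 0 h, *ID2* (0.91, adjusted p = 1.5e-05) without p65-deficient cells at 0 h and *ID1* (0.98, adjusted p = 0.0378) without p65-deficient cells at 1 h.

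The TOP2 inhibitor ICRF193 left most of these genes near their levels without inhibitor. *ID1* fell by 0.19 on the log2 scale (SE 0.0321, edgeR adjusted p = 0.000116) and *SMAD6* by 0.31 (SE 0.0779, adjusted p = 0.0175), so 2 of 7 passed, both lower, where 2.17% of 13631 genes passed, 0.587% higher and 1.58% lower. The other 5 had log2 fold changes between -0.02 and 0.10 with SE of 0.0462 to 0.0975. *ID1* was lower in all 4 pairs, where 18.8% of genes had 1 sign (ratios of -0.18, -0.05, -0.26 and -0.24, exact sign-flip permutation p = 0.125, the smallest possible). *SMAD6* had ratios of -0.50 and -0.59 in p65-deficient cells and 0.01 and -0.27 in WT cells. The difference between the lines was not tested here for ICRF193. Without the 4 shallow libraries, which leaves the 2 WT pairs alone, neither passed (edgeR adjusted p = 0.0979 for *ID1* and adjusted p = 0.691 for *SMAD6*). *SMAD6* also did not pass without WT cells at 1 h (adjusted p = 0.0947), without p65-deficient cells at 0 h (adjusted p = 0.124) or 1 h (adjusted p = 0.232), after thinning (adjusted p = 0.266) or with DESeq2 (adjusted p = 0.38), and neither gene passed without the block on pairs (adjusted p = 1).

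Set directly against ICRF193, CPT libraries had more *HES1* (1.09, SE 0.0728, edgeR adjusted p = 7.85e-08) and *ID3* (0.67, SE 0.106, adjusted p = 0.000189) and less *SMAD7* (-1.22, SE 0.323, adjusted p = 0.00738), *SMAD6* (-0.80, SE 0.107, adjusted p = 4.75e-05) and *SKIL* (-0.30, SE 0.103, adjusted p = 0.0314). *ID1* (-0.29, adjusted p = 0.0525) and *ID2* (0.30, adjusted p = 0.148) did not pass, so 5 of 7 passed, where 46.4% of 13900 genes did (20.9% higher, 25.5% lower). The comparisons of CPT and of ICRF193 with no inhibitor share the 4 libraries without inhibitor. The *SKIL* call was lost without either pair of p65-deficient cells (adjusted p of 0.137 without 0 h and 0.133 without 1 h), with DESeq2 (0.0931), with total counts (0.0522) and without the block on pairs (0.0527), and that of *SMAD7* with DESeq2 (0.134). Without WT cells at 0 h *ID1* (adjusted p = 0.0434) and *ID2* (0.55, adjusted p = 0.000396) passed and *SMAD7* was -0.79, and without WT cells at 1 h *ID1* (-0.50) and *ID2* (0.44) passed. Without the shallow libraries, which leaves the WT pairs alone, *ID2* was lower with CPT than with ICRF193 (-0.19, adjusted p = 0.0268).

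*ID1* was lower after 1 h of TNFα in WT cells. Its log2 ratio of 1 h to 0 h was -0.75 (interval -0.83 to -0.67) without inhibitor, -0.62 (-0.71 to -0.53) with ICRF193 and 0.08 (-0.0028 to 0.16) with CPT. Over the 3 pairs *ID1* fell by 0.43 (SE 0.0891, edgeR adjusted p = 0.0141), as 1 of 4 genes that fell among 13707 tested (0.0292%), where 0.613% rose and 0.642% changed in either direction. This call was lost with DESeq2 and without the block on pairs (adjusted p = 1 in both) and after thinning to equal library totals (adjusted p = 0.0599), and *ID1* was -0.27 without the pair that lacks inhibitor. The other 6 members did not pass, and *ID2* came closest with -0.23 (SE 0.0653, adjusted p = 0.228). Its ratio was -0.46 without inhibitor, -0.26 with ICRF193 and 0.06 with CPT. Without the CPT pair both genes passed, *ID1* with -0.69 (adjusted p = 1.15e-23) and *ID2* with -0.37 (adjusted p = 1.85e-09), a fit with 1 degree of freedom per gene. By contrast, *SMAD6* and *SMAD7* had ratios between -0.26 and 0.32 in WT cells, and *ID3*, *SKIL* and *HES1* between -0.19 and 0.07.

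In p65-deficient cells *ID1* was also lower at 1 h, with ratios of -0.30 (interval -0.37 to -0.23) without inhibitor, -0.22 (-0.31 to -0.13) with CPT and -0.28 (-0.36 to -0.20) with ICRF193. *HES1* had -0.44 (interval -0.69 to -0.20) without inhibitor in these cells, with -0.12 and -0.19 with CPT and ICRF193. All 3 libraries with TNFα were shallow here. With ICRF193 the library at 0 h was shallow too (8755001 reads, against 8676666 at 1 h), and this pair gave the ratio of -0.28 for *ID1*. In the other 2 pairs depth and TNFα coincide and cannot be told apart. The TNFα effect was not shown to differ between WT and p65-deficient cells for any member (0 of 7, against 0.228% of 14459 genes, 0.214% higher and 0.0138% lower in WT cells, edgeR, with 1433 genes at an unadjusted p under 0.05 and 11 genes called by DESeq2). For *ID1* the difference was -0.17 (SE 0.126, adjusted p = 0.689), and without the pair of WT cells with CPT it was -0.42 (SE 0.0622, adjusted p = 2.75e-05).

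**Figure D3:**
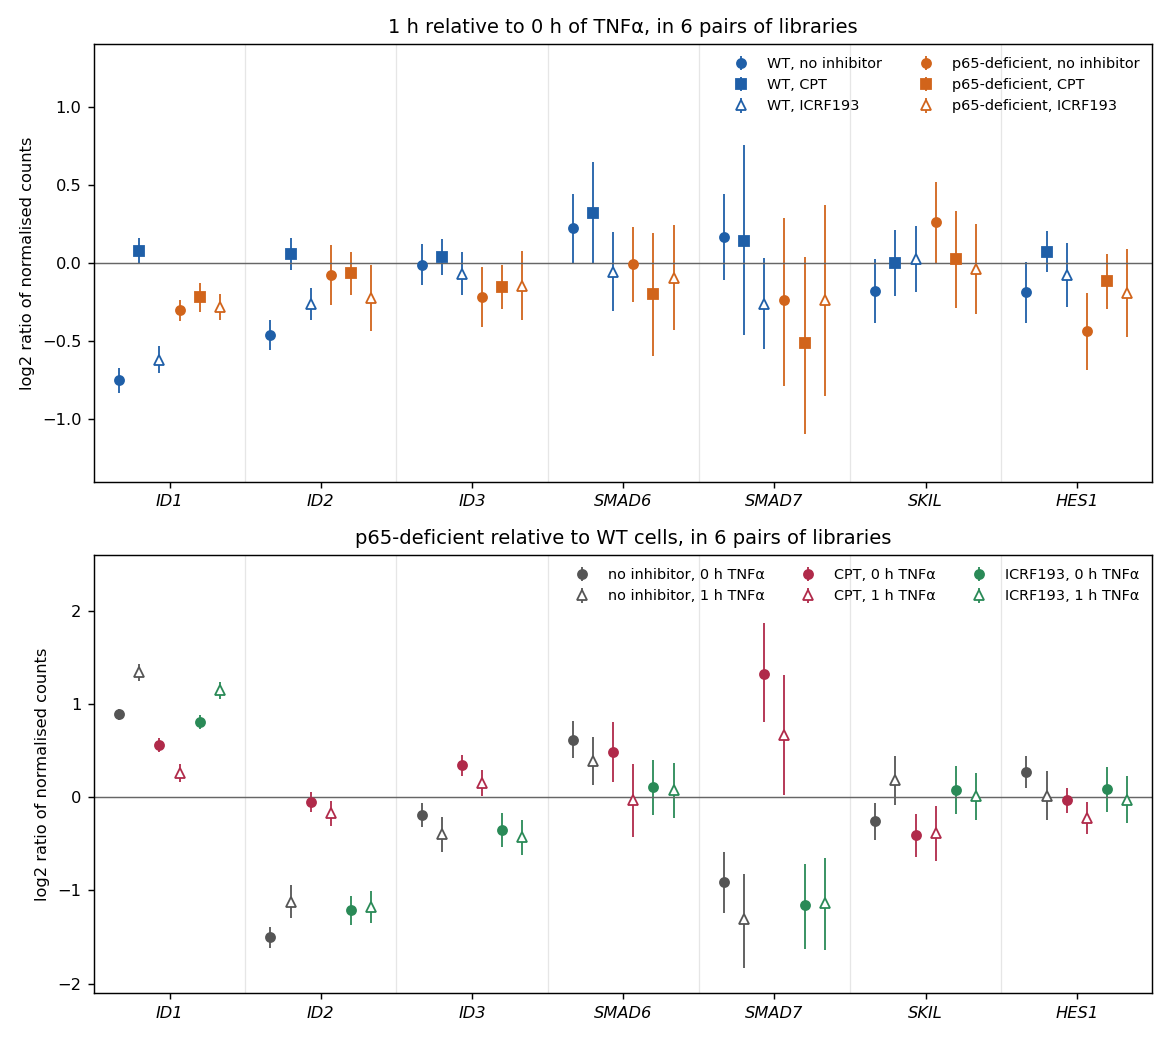
Log2 ratios of normalised counts of the 7 genes, with 95% counting intervals as bars, for 1 h to 0 h of TNFα in 6 pairs of libraries (upper panel) and for p65-deficient to WT cells in 6 pairs (lower panel). *ID1* lies at -0.75 and -0.62 in WT cells without CPT and at 0.08 with CPT, and *SMAD7* lies below 0 in the lower panel without CPT and above 0 with it.

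Between the cell lines, *ID1* was higher and *ID2* lower in p65-deficient cells. Over 6 pairs *ID1* was higher by 0.85 on the log2 scale (SE 0.103, edgeR adjusted p = 3.55e-05) and *SMAD6* by 0.31 (SE 0.0915, adjusted p = 0.0189), and *ID2* was lower by 0.84 (log2 fold change -0.84, SE 0.155, adjusted p = 0.00103). So 3 of 7 genes passed, against 32.1% of 13730 genes (15.2% higher, 16.9% lower). *SMAD6* was not called without the block on pairs (adjusted p = 0.494). *ID1* was higher in all 6 pairs, by 0.89 and 1.34 without inhibitor (0 h and 1 h), 0.81 and 1.15 with ICRF193 and 0.56 and 0.26 with CPT. *ID2* was lower by -1.50 and -1.12 without inhibitor and -1.21 and -1.17 with ICRF193, whereas it had -0.05 and -0.17 with CPT.

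*SMAD7* changed its order between the lines with CPT. It was lower in p65-deficient cells in the 4 pairs without CPT (ratios of -0.91, -1.31, -1.16 and -1.13) and higher in the 2 pairs with CPT (1.33, interval 0.81 to 1.87, and 0.67, interval 0.02 to 1.31), so that the fit over all 6 pairs gave -0.53 (SE 0.267, edgeR adjusted p = 0.147). *ID3* had ratios of -0.19, -0.40, -0.35 and -0.43 without CPT and 0.34 and 0.15 with it. Over the 4 pairs without CPT alone, a choice made after the data were seen, *SMAD7* was lower by 1.08 (log2 fold change -1.08, SE 0.106, adjusted p = 5.84e-08) and *ID3* by 0.31 (log2 fold change -0.31, SE 0.0523, adjusted p = 6e-05), and 5 of the 7 genes passed, where 42.1% of 13631 genes did so in the same fit. In all of these pairs without CPT but that without inhibitor at 0 h, the p65-deficient library was shallow and the WT library was not. Depth and cell line cannot be told apart in those pairs. *HES1* (0.02, adjusted p = 0.831) and *SKIL* (-0.12, adjusted p = 0.304) did not pass over all 6 pairs. Leaving out the 4 shallow libraries left 2 pairs, in which *ID1* alone of the 7 genes passed, where 3.65% of 14268 genes did so (adjusted p of 0.0812 for *ID2* and 0.0877 for *SMAD6*), and *SMAD6* also did not pass without either pair that lacks inhibitor (0.0888 without 0 h and 0.0622 without 1 h). Without the pair with CPT at 0 h, *ID3* (-0.21, adjusted p = 0.024) and *SMAD7* (-0.89, adjusted p = 0.000998) passed as well.

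The other genes of the pathways were taken from 7 lists, also chosen with earlier results of these data known, so counts over them are descriptions. The lists held 96 genes, of which 76 passed the filter in the CPT comparison. With CPT 18 were higher and 30 lower, where 23.2% of all 13993 genes tested were higher and 25.1% lower, with a median log2 fold change of -0.07 against 0.02 over all genes. Among 16 SMAD proteins and their regulators 13 fell and none rose (median -0.41), and *SMAD4*, the common partner of all receptor-activated SMADs, fell by 0.34. Of these, *SMAD5* and *SKI* each did not pass when either of 2 pairs was left out. *PPM1A* did not pass without WT cells at 1 h (edgeR adjusted p = 0.0883). *TGIF1*, a homeodomain co-repressor of SMAD2 and SMAD3, fell by 2.18 (SE 0.0656, edgeR adjusted p = 6.2e-10). The ubiquitin ligase genes *RNF111* (Arkadia, which degrades SKIL and SMAD7 protein) and *SMURF1*, a partner of SMAD7, fell by 1.13 and 1.06. Among 10 receptors 6 fell, the most *TGFBR2* (-1.28), *ACVR2A* (-0.78) and *ACVR1B* (-0.65), and *ENG* rose by 1.18. *BMPR1A*, another receptor gene that fell, did not pass without p65-deficient cells at 1 h (edgeR adjusted p = 0.064).

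Among 9 ligands *BMP4* fell by 1.81 (SE 0.0613, edgeR adjusted p = 2.05e-09), and *TGFB3* rose by 0.74 and *BMP1*, a protease that matures collagens and ligands, by 0.18. Of 7 extracellular and membrane inhibitors *BAMBI*, a decoy receptor, rose by 0.98 and *FSTL3*, which binds activin, by 0.61. Of 11 other TGFβ and BMP target genes 5 rose, led by *CTGF* (1.48), the cell cycle inhibitor gene *CDKN2B* (1.29) and *GATA2* (1.15), and *MSX2* fell by 0.33. *TCF3*, 1 of 2 tested E protein genes that ID proteins bind, rose by 0.12. The small changes rested on single pairs of libraries. *BMP1* did not pass without WT cells at 1 h (edgeR adjusted p = 0.0992) or without p65-deficient cells at 0 h (adjusted p = 0.117) or 1 h (adjusted p = 0.245). The same 3 pairs decided *TCF3*, with an adjusted p of 0.115, 0.247 and 0.155. *MSX2* did not pass without WT cells at 0 h (adjusted p = 0.213) or 1 h (adjusted p = 0.217). *CYR61*, among the target genes that rose, did not pass without p65-deficient cells at 1 h (adjusted p = 0.117).

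Among 21 Notch pathway genes other than *HES1*, 7 rose and 9 fell with CPT (median -0.07), against 23.2% and 25.1% of all genes. Of these, *RBPJ* and *HEYL* each did not pass when any of 3 pairs was left out. *JAG2* and *NOTCH3* each did not pass when either of 2 pairs was left out. The ligand genes *DLL4* (1.44) and *DLL1* (1.09) and the Notch glycosyltransferase gene *LFNG* (1.02) rose. The co-activator genes *MAML2* (-1.01) and *MAML1* (-0.88) and the co-repressor gene *TLE3* (-0.69) fell. The HES family genes *HES2* (0.72) and *HES6* (0.42) and the Notch feedback inhibitor gene *NRARP* (0.51) rose, as *HES1* did.

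The difference in the CPT effect between the lines was called for 11 of 82 list genes tested, of which 6 belonged to the 11 TGFβ and BMP target genes, all with a lower ratio in WT cells, where 4.78% of all 14573 genes were called and 2.39% had the lower ratio in WT cells. These were *CYR61* (WT minus p65-deficient -2.05), *KLF10* (-1.66), *CTGF* (-1.37), *JUNB* (-1.09), *MSX2* (-0.64) and *MSX1* (-0.53), beside *SMAD7* at -2.15 and *ID2* at -1.19 among the 7 genes described. *JUNB* was -1.66 without the pair of WT cells at 0 h and -0.48 without that at 1 h, and *MSX2* did not pass without p65-deficient cells at 0 h (edgeR adjusted p = 0.245). TNFα in WT cells raised 3 of the 77 list genes tested, where 0.613% of all genes rose, *JUNB* by 1.19, *KLF10* by 0.83 and *CYR61* by 0.35, whereas *ID1* fell. *CYR61* did not pass without the pair that lacks inhibitor (adjusted p = 0.075). The CPT ratios in WT cells were -0.81 at 0 h and -1.72 at 1 h for *KLF10*, and 1.17 and -0.0032 for *JUNB*. In p65-deficient cells they were 0.41 and 0.38 for *KLF10*, and 1.70 and 1.63 for *JUNB*. The part of the TNFα response in the difference of the CPT effect between the lines was not tested. With ICRF193, 1 list gene rose (*CDKN1A*, the p53 target that codes for p21, by 0.30) and 8 fell, against 0.587% and 1.58% of all genes. Among those that fell were *MAML2* (-0.67), *TGFBR3* (-0.25) and *SMAD3* (-0.22). *MAML2* did not pass without WT cells at 1 h (adjusted p = 0.185) or p65-deficient cells at 1 h (adjusted p = 0.16), and *TGFBR3* not without the latter (adjusted p = 0.146).

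**Figure D4:**
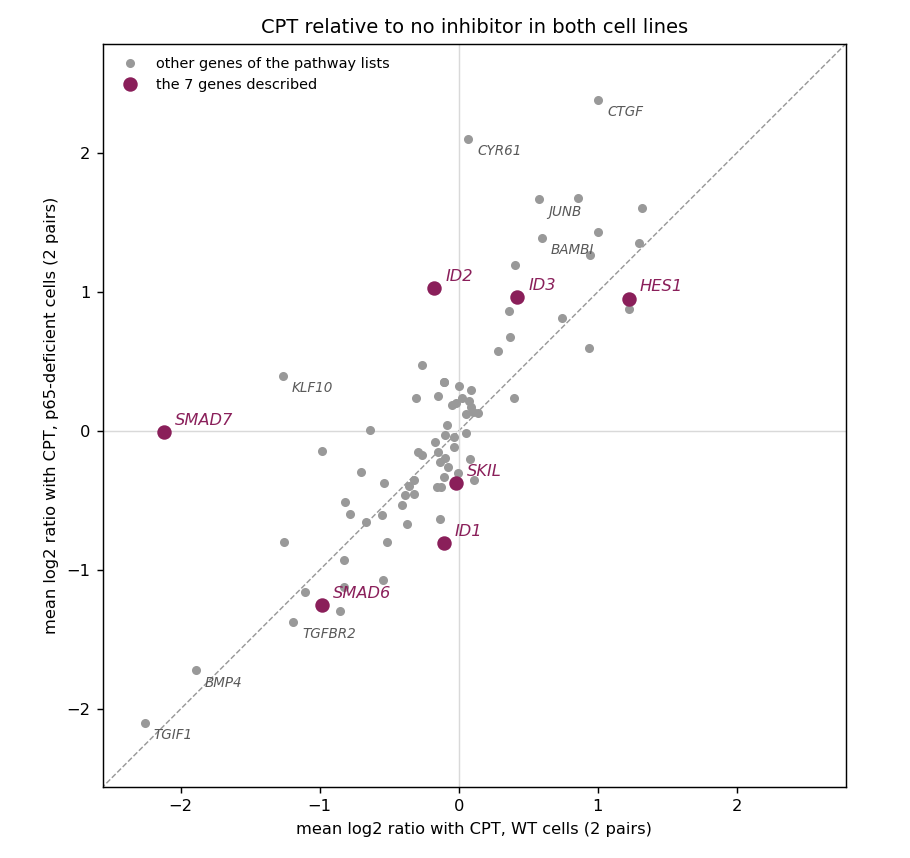
Mean log2 ratio with CPT to no inhibitor in WT cells (x axis, 2 pairs) and in p65-deficient cells (y axis, 2 pairs) for 76 genes of the pathway lists in grey and the 7 genes described in purple, with the line of equal ratios dashed. *SMAD7*, *ID2*, *KLF10* and *CYR61* lie far above the line, *ID1* below it, and *SMAD6* and *HES1* close to it.

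The span of a gene varied together with the CPT effect over all genes, and the members' spans are unequal. Genes under 5 kb (1965) had a median CPT log2 fold change of 0.24 and 47% of them were called higher, whereas genes of 50 to 100 kb had -0.07 and genes over 100 kb -0.11. *HES1* and *ID3*, both under 5 kb, lay at percentiles 85.3 and 77.4 of their class. *ID1*, the shortest member, fell and lay at percentile 12.1. *SMAD7* and *SMAD6* lay at percentiles 3.7 and 3.1 of genes of 20 to 50 kb and 50 to 100 kb, and *SKIL*, in the same class as *SMAD7*, at percentile 31.6. These percentiles are descriptions, and the part of gene span in the CPT effect was not tested.

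**Figure D5:**
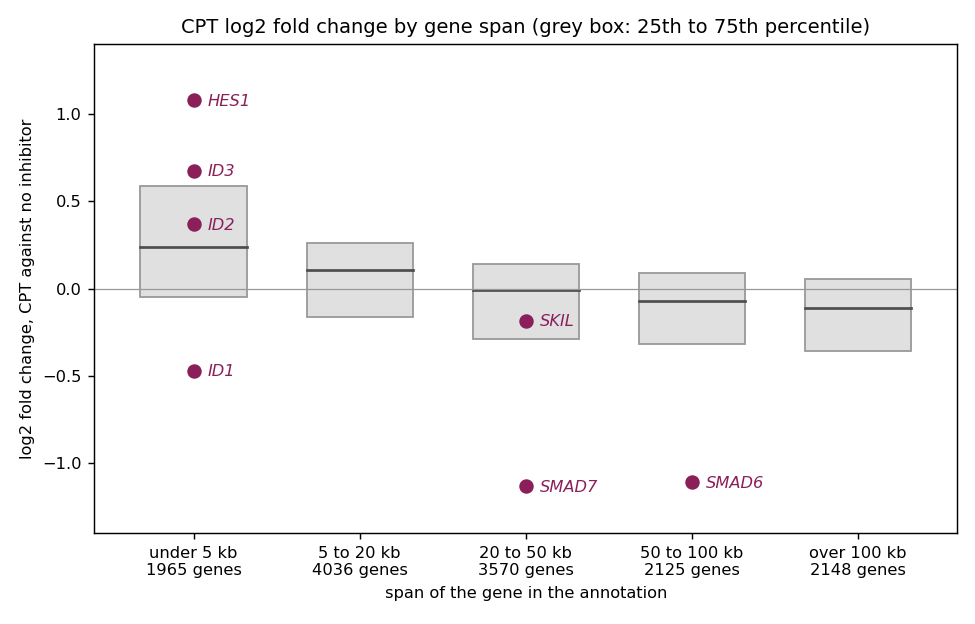
CPT log2 fold change (edgeR, 4 pairs) by the span of the gene in the annotation, with grey boxes from the 25th to the 75th percentile and a line at the median of each class, and the 7 genes as labelled points. The class medians run from 0.24 under 5 kb to -0.11 over 100 kb, *HES1* and *ID3* lie above the box of their class, and *ID1*, *SMAD6* and *SMAD7* below theirs.

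The genes whose level over the 12 libraries was most like each member were taken from 10228 genes with a mean of at least 100 reads, by Pearson's r of log2 counts scaled to library size. For *HES1* these were *ARC* (r = 0.97) and *SGK1* (0.97), which had 123 to 190.1 and 23.8 to 54.6 normalised reads without CPT and 442 to 636 and 522 to 620.2 with it. *SMAD6* was most like *MYEOV* (0.98) and *TBC1D10A* (0.97), *ID3* like *DDX41* and *ALYREF* (0.98 each) and *SMAD7* like *ING5* (0.97) and *MAFK* (0.96). *ID2* was most like *ACIN1* (0.98) and *ENC1* (0.96), *SKIL* like *KIAA1109* and *TPR* (0.94 each), and *ID1* like *PLAT* and *TRERF1* (0.93 each). *ENC1* shared the pattern of *ID2* of a meeting point with CPT, with 915 to 959 reads in WT cells and 440.1 to 547.5 in p65-deficient cells without CPT and 701 to 759 in all CPT libraries. All points share the libraries, their depth and the CPT contrast, and the 2 genes of each member are the highest of many, so these values are descriptions.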

How the data were processed

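Total RNA of the 12 HCT116 libraries was sequenced with a stranded total RNA kit. The labels' processing notes name Trimmomatic, STAR, featureCounts and the hg19 build, and the authors deposited 1 table of raw read counts per gene for each library, made with featureCounts 1.5.0 without a strand option per the file headers. Sources differ on the RNA extraction kit. Counts were tested with edgeR 4.0.16 (R 4.3.3, limma 3.58.1) as quasi-likelihood fits with TMM scaling, filterByExpr, the pair of libraries as a block and Benjamini-Hochberg adjustment over all genes tested (two-sided, threshold 0.05), and an SE is the log2 fold change divided by the square root of F. Pairs were matched by condition, as the labels give no replicate numbers or separate cultures. The p-values therefore rest on the spread between conditions. Ratios of 2 libraries used DESeq2 1.42.0 size factors, no pseudocount and exact Clopper-Pearson 95% intervals. Depth ran from 8101212 to 22051046 reads.

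The 7 genes and all lists were chosen with earlier results of these data known. Named were the 7 genes, from each pathway list up to 3 genes higher and 3 lower with CPT by size (mean count of at least 20), list genes past the threshold in another comparison, the 2 genes most like each member, and *RELA* and *TOP1*. The Notch genes *HES2*, *HES6* and *NRARP* and *SMAD4* were named after their values were seen. A gene of the lists is not reported here. Alternatives were other scalings, no filter, DESeq2, no block, leaving out pairs and, chosen after seeing the data, thinning to 8101212 reads per library, leaving out the 4 shallow libraries, the pairs of 1 cell line and the pairs without CPT. Promoter sequences are from RefSeq (GRCh38.p14). Figures were drawn with matplotlib.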

Additional observations from a re-analysis of the deposited data

Results flagged for a closer look

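The results below were singled out because an effect differed between the cell lines by a test of the difference itself (an interaction term in edgeR's quasi-likelihood fit, Benjamini-Hochberg adjusted p under 0.05), and values are log2 effects in WT minus p65-deficient cells. For the CPT effect, 4 of the 7 genes met this, *SMAD7* with -2.15, *ID2* with -1.19 and *ID3* with -0.51, and *ID1* with 0.72, where 4.78% of all 14573 genes did. With DESeq2 *SMAD7* and *ID2* were called, but *ID3* and *ID1* were not. The genes and lists were chosen with earlier results of these data known, so such counts are descriptions. Among the genes of the pathway lists, the CPT effect was lower in WT cells for *CYR61* (-2.05), *KLF10* (-1.66), *CTGF* (-1.37), *JUNB* (-1.09), *BAMBI* (-0.76), *MSX2* (-0.64), *MSX1* (-0.53), *FSTL3* (-0.50) and *NEDD4L* (-0.39). It was higher in WT cells for the receptor gene *BMPR1A* (0.51) and for *SMURF1* (0.45). Single pairs of libraries decided several of these by edgeR. Without p65-deficient cells at 0 h, *BAMBI* (adjusted p = 0.112), *MSX2* (adjusted p = 0.245), *FSTL3* (adjusted p = 0.256), *NEDD4L* (adjusted p = 0.19), *BMPR1A* (adjusted p = 0.271) and *SMURF1* (adjusted p = 0.0769) did not pass. Without p65-deficient cells at 1 h, *BMPR1A* (adjusted p = 0.213) and *SMURF1* (adjusted p = 0.187) did not. Without WT cells at 0 h, *BAMBI* (adjusted p = 0.0828), *FSTL3* (adjusted p = 0.0553) and *BMPR1A* (adjusted p = 0.0827) did not, *JUNB* was -1.66 and *ID1* 1.14. Without WT cells at 1 h *JUNB* was -0.48 and *ID1* 0.32. For the TNFα effect, *JUNB* (1.15) and *KLF10* (0.98) met this, both higher in WT cells. Neither passed without the pair of WT cells with ICRF193 (adjusted p = 0.0768 for *JUNB* and 0.102 for *KLF10*) or without the pair of p65-deficient cells that lacks inhibitor (0.0815 and 0.0986).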

How the results depend on the processing

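Under other scalings (size factors of DESeq2, total counts) all counts of members past the threshold stayed within 1.5 times. Under TMM 2 genes in place of 1 had 1 sign in all 4 ICRF193 ratios. The log2 ratio of *ID1* between the lines with ICRF193 at 1 h was 1.24 with total counts and 1.15 with DESeq2 size factors. Counts of members past the threshold moved from 5 to 3 with DESeq2 for CPT, from 5 to 3 for CPT against ICRF193, from 4 to 2 for the CPT effect between the lines, from 2 to 1 for ICRF193 and from 1 to 0 for TNFα in WT cells. Without the replicate block, that is without the pairing of libraries by condition, they moved to 0 for ICRF193 and to 0 for TNFα. With no filter, TNFα in WT cells had 2. After thinning it had 0 and ICRF193 had 1. Without the shallow libraries ICRF193 had 0 and p65-deficient against WT cells had 1, and the pairs without CPT had 5 for the latter. Leaving out 1 pair at a time gave 1 to 2 genes for ICRF193, 1 to 2 for TNFα in WT cells, 0 to 1 for its difference between the lines, 2 to 5 for the cell lines, 0 to 2 for the CPT effect between the time points (there, cell line and time are no longer balanced), 4 to 5 for CPT, 4 to 7 for CPT against ICRF193 and 4 to 5 for the CPT effect between the lines. Signs turned for *ID2* with CPT in WT pairs alone (-0.20) and against ICRF193 without the shallow libraries (-0.19), for *SMAD7* (0.0344) and *MSX2* (0.005) with CPT in p65-deficient pairs alone, and for *RBPJ* between the lines without the shallow libraries (-0.0082). Over all genes, the CPT effect between the lines was called for 696 genes by edgeR (49.9% higher in WT cells) and 148 by DESeq2 (21.6%), with 40.5% under DESeq2 size factors and 57.4% under total counts. The split of the cell line calls was 47.5% higher and 57.5% under total counts, and that of ICRF193 27% and 38%. The counts over all genes moved by over 1.5 times for ICRF193 (296, with 83 by DESeq2, 184 after thinning, 3 without the block and 148 to 177 without 1 WT pair), for TNFα in WT cells (88, with 25 by DESeq2, 0 without the block and 372 without the CPT pair) and for its difference between the lines (33, with 132 unfiltered, 11 by DESeq2, 0 without the block and 5 to 99 without 1 pair). They also moved for the cell lines (4408, with 2043 without the block and 521 without the shallow libraries), for the CPT effect between the lines (1096 unfiltered, 343 without the block, 384 after thinning and 277 to 1696 without 1 pair) and for the CPT effect between the time points (1, with 21 unfiltered, 0 without the block and 7 to 63 without 1 pair). With no filter, *ID2* passed for CPT (edgeR adjusted p = 0.0203), TNFα (adjusted p = 0.00269) and CPT against ICRF193 (adjusted p = 0.000121), *ID1* for the last (adjusted p = 3.34e-06) and *SMAD7* between the lines (adjusted p = 0.000481). Thinning, the shallow libraries, the pairs of 1 line and the pairs without CPT were tried after the data were seen. The cause was not tested for these changes. *SMAD7* had the fewest reads, 36 to 235 per library.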

Other observations

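Several pathway genes that the report does not describe differed between the cell lines. Among 9 ligands tested, 4 were higher and 1 lower in p65-deficient cells, where 15.2% of all 13730 genes were higher and 16.9% lower. *TGFB2* was lower in p65-deficient cells (log2 fold change -0.93, SE 0.173, edgeR adjusted p = 0.00115), and of the higher ones *BMP1* (0.24) alone also passed when each of the 6 pairs was left out in turn. Of 7 extracellular and membrane inhibitors tested, 5 were higher (*FSTL1*, *FSTL3*, *LTBP3*, *TWSG1* and *BAMBI*) and 1 lower. The lower one was *LTBP1*, which anchors latent TGFβ in the matrix (-1.71, SE 0.137, adjusted p = 6.65e-07). *BAMBI* did not pass without the pair with CPT at 1 h (adjusted p = 0.0542). Of 10 receptors 3 were higher and 1 lower, and the co-receptor gene *TGFBR3* was among the higher ones (0.89, SE 0.0658, adjusted p = 3.23e-07). *CTGF* (-1.21), *CYR61* (-1.09) and *JUNB* (-0.69) were lower, and *JUNB* did not pass without either of the pairs at 1 h of TNFα that lack CPT (adjusted p = 0.0677 without the pair that lacks inhibitor and 0.0965 without that with ICRF193). *CYR61* was lower in p65-deficient cells only without CPT (153 to 217.5 normalised reads, against 555 to 815 in WT cells). With CPT it was higher there (772 and 829.5 at 0 h and 1 h, against 679 and 795). *JUNB* was also higher there with CPT at 0 h (3647 against 3165.5).

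In the Notch list 7 of 20 genes tested were higher and 7 lower in p65-deficient cells, against 15.2% and 16.9% of all genes. Several of these calls rested on single pairs. Leaving out 1 of the 6 pairs at a time, *HES4* and *MAML3* were lost in 5 fits and *DLL4*, *NOTCH2*, *NRARP* and *RBPJ* in 4. *JAG2* and *NOTCH1* were lost in 1. *MAML2* (1.20), *LFNG* (0.86) and *NOTCH3* (0.71) were higher, and *TLE3* (-0.52) was lower, whereas *HES1* had 0.02 (edgeR adjusted p = 0.831). These comparisons rest on 1 clone.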
